A study of Mus musculus with 8 samples.

Results

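Interferon-stimulated genes are the antiviral and immune genes that cells switch on after sensing an interferon. A list of 41 such mouse genes was read by symbol in ascending aorta of Fbn1mgR/mgR and wild-type mice, 33 of them taken as type I interferon targets and 8 (Irf1, 4 Gbp genes and 3 immunity-related GTPases) as typical gamma interferon targets. On the array, 39 of the 41 had a transcript cluster that carries their symbol alone, out of 30145 genes measured in that way. Ifi44 was not analysed here, and Gbp5 shares a cluster with Gbp2b, so neither has a value. Oas3 lay below the filter on dim clusters, which left 38 members in the test.

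The study compared 4 arrays of Fbn1mgR/mgR aorta, labelled mgR611 to mgR614, with 4 of wild-type aorta, labelled WT675, WT676, WT742 and WT744, all from males aged 10 weeks on a C57BL/6J background, without treatment named in the labels. Both genotypes came from crosses of Fbn1mgR/+ heterozygotes. The mgR allele is hypomorphic: it yields too little fibrillin-1, the microfibril protein affected in Marfan syndrome, in every tissue of the animal, so it is not specific to a cell type. RNA from snap-frozen tissue was hybridised to Affymetrix Clariom D arrays, and every value below is a log2 signal as deposited, so that a difference of 1 is a factor of 2. Nothing in the labels ties each array to an animal of its own, so every p-value reflects only how far these arrays scatter, and that scatter may be technical. The number of arrays limits the precision. Fbn1 itself was not analysed here.

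Type I interferons (the alpha family and beta) bind IFNAR1 and IFNAR2, and the kinases JAK1 and TYK2 then activate a complex that includes STAT2 and IRF9 and binds the interferon-stimulated response element. Gamma interferon, made mainly by T and NK cells, acts through IFNGR1, IFNGR2, JAK1 and JAK2 on genes with a gamma-activated site, and IRF1 then carries the signal to further promoters. Many genes answer to both, so the division of the list is one of emphasis. In the artery wall, smooth muscle, endothelium and resident macrophages can all mount these responses.

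The arrays were alike in depth of signal. Array medians were between 3.95 and 4.07, and correlations over all clusters were 0.989 to 0.993 within a genotype and 0.984 to 0.990 between genotypes. Among the smooth muscle markers that check the labelled tissue, the actin gene Acta2 was at 19.14 to 19.49 in mutants and 19.49 to 19.57 in wild-type arrays. Brown fat markers varied by array, with a mean over 7 genes of 10.69 in mgR614 and 10.91 in WT676 and 6.50 to 8.40 in the other arrays, so both genotypes held such an array. Olfactory receptor genes, used as a reference for signal without expression, had a 95th percentile of 4.11, and Oas3, Oasl1 and Mx1 had wild-type means below it. Over the 32957 clusters tested, limma called 507 higher and 184 lower in mutants at a Benjamini-Hochberg adjusted p under 0.05.

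Oas1a, Oas2 and Zbp1 rose in the mutant aorta, by 2.45-fold, 2.08-fold and 1.51-fold. A wider set of type I genes had higher mutant means without passing the test, and the IFIT, GBP and immunity-related GTPase genes had differences within the spread of the arrays. Thus 3 of 38 members were called higher, where 1.54% of all clusters tested were called higher, and 0 were called lower, where 0.558% of all clusters were. At an unadjusted p under 0.05, 12 members were higher and 0 lower by limma, against 7.45% and 6.72% of all clusters. Every mutant array lay above every wild-type array for 7 members (Dhx58, Zbp1, Oas1a, Oas2, Mx1, Ifitm3 and Trim30a), and the opposite held for 0, where these shares over all clusters were 5.26% and 3.65%. The median difference was 0.26 over the members, with 33 positive and 5 negative, and -0.02 over all clusters tested, of which 46.1% were positive. Members were read from clusters of 1 symbol. Over the 18122 such clusters tested, the median was 0.005, 50.9% were positive, and 402 were called higher and 102 lower. At an unadjusted limma p under 0.05, 1826 of them were higher and 1036 lower. Mutant arrays all lay above wild-type arrays in 1363 of them, and the opposite held in 711. The call was not stable to single arrays: between 0 and 4 members were called when each array was left out in turn, with 0 called without mgR613 and 0 without WT676.

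**Figure D1:**
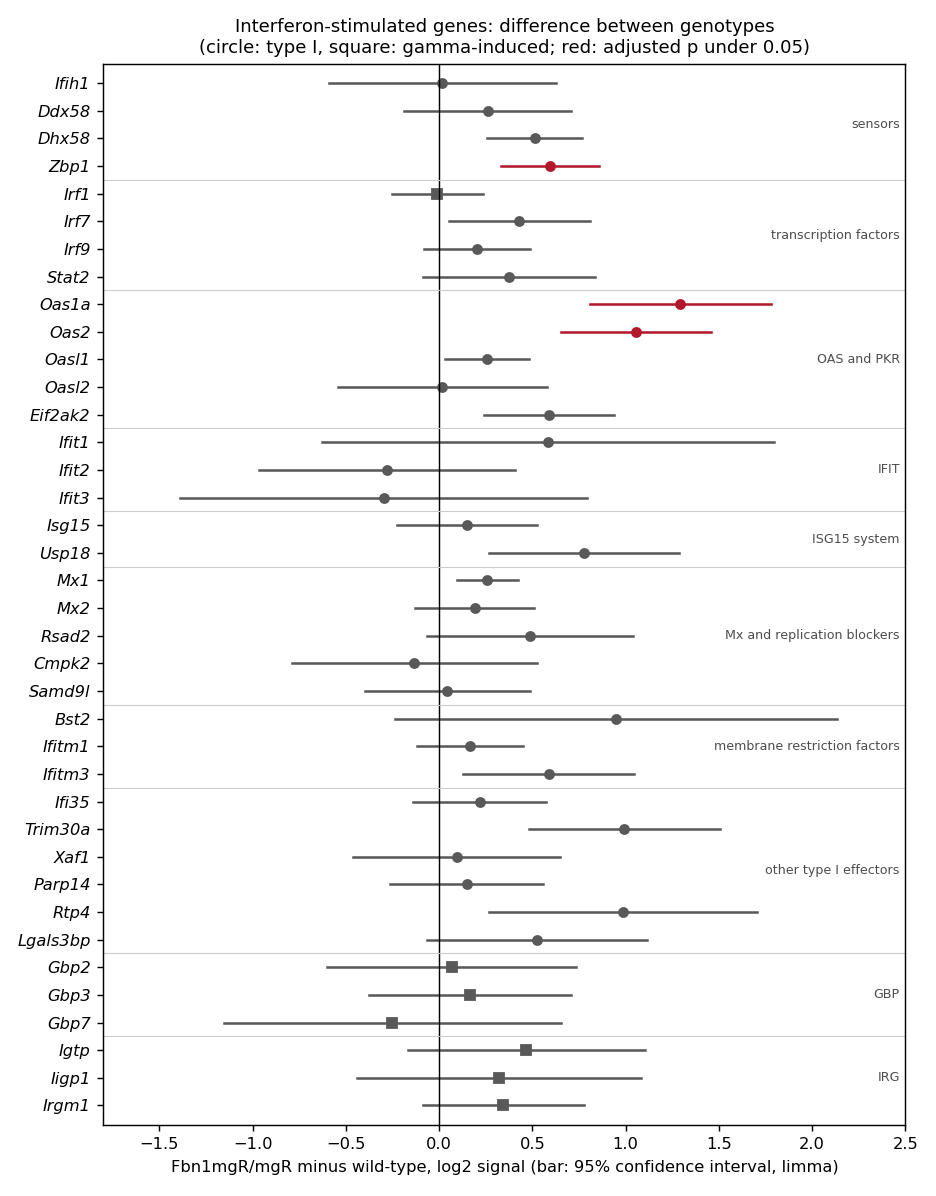
Difference in log2 signal between Fbn1mgR/mgR and wild-type aorta for the 38 members tested (points, with 95% confidence intervals as lines; x axis in log2 units), grouped by role. Oas1a (1.29), Oas2 (1.05) and Zbp1 (0.59) passed the test, and the lowest difference was that of Ifit3 (-0.30).

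Sequence in front of these genes was read from RefSeq promoter windows on GRCm38.p6, each with 250 bases before the annotated start and 50 after it, which were held for 32 of the 41 members and 27025 genes in all. The interferon-stimulated response element was searched as GAAA, any 2 bases and GAAACT, its shorter core as the same letters without the final CT (so that each longer match holds a core), and the gamma-activated site as TTC, any 3 bases and GAA, each on both strands. The longer element was in the windows of 12 of 32 members (37.5%), against 0.303% of all genes, and the core was in 19 (59.4%), against 3.99%. The gamma-activated site was in 10 of 32 (31.2%), against 9.55% of all genes. By kind of target, the longer element was in 7 of 25 type I members (28.0%) and 5 of 7 gamma members (71.4%), and the gamma-activated site in 6 of 25 (24.0%) and 4 of 7 (57.1%). A match is a description of the letters, not a binding site.

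The 5 sequences below are the 150 bases before the start of genes from both kinds of target, printed 5′ to 3′ on the gene's own strand with every match in capitals, so that the motifs of the member with the largest difference can be read beside those of members that were not called. Oas1a lies on the minus strand (chr5:120907526-120907675). It holds a gamma-activated site that begins 98 bases before the start and a response element that begins 20 bases before it. This start is not at the edge of the annotated gene, unlike those of the other sequences printed, so its distances are not fully comparable. The other called members, Oas2 and Zbp1, had no window. Ifit1 (chr19:34640739-34640888, plus strand) holds the response element at 106 and 87 bases before its start, on the opposite strand. Isg15 (chr4:156200819-156200968, minus strand) holds 3 overlapping cores, of which the farthest begins 78 bases before the start. Gbp7 (chr3:142530186-142530335, plus strand) has gamma-activated sites at 106 and 87 bases and a response element at 55 bases. Irf1 (chr11:53769864-53770013, plus strand) has a gamma-activated site at 90 bases and no match to the response element or its core. A further Irf1 window, not printed, held no match.
Oas1a: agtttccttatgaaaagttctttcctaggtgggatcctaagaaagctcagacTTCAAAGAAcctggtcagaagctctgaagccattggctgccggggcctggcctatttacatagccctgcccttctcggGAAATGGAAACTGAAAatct
Ifit1: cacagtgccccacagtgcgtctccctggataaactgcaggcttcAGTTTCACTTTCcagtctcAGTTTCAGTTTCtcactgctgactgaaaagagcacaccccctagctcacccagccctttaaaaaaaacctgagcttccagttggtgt
Isg15: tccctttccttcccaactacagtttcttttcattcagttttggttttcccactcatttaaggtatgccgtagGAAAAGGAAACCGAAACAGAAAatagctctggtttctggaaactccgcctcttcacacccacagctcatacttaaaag
Gbp7: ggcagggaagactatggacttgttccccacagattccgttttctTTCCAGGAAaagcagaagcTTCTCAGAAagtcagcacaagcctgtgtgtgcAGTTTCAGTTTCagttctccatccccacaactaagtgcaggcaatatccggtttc
Irf1: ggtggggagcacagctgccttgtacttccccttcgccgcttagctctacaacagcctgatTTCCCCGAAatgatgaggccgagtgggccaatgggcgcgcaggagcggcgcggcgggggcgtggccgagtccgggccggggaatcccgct

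The largest differences among the members were those of the oligoadenylate synthetases Oas1a and Oas2. These enzymes make short 2′-5′ oligoadenylates when they meet double-stranded RNA, and the products activate RNase L, which degrades RNA. Oas1a had signals of 7.14, 7.97, 7.78 and 7.47 in the mutant arrays and 6.61, 6.02, 6.53 and 6.03 in the wild-type arrays. The genotypes did not overlap, and mgR611, the lowest mutant, was above WT675, the highest wild-type array. Its difference was 1.29 (SE 0.216, 95% interval 0.807 to 1.78, limma adjusted p = 0.0180). Oas2 read 6.53, 7.21, 6.92 and 6.57 in mutants against 5.93, 5.68, 5.49 and 5.91 in wild-type arrays, again without overlap. It rose by 1.05 (SE 0.179, 95% interval 0.653 to 1.46, adjusted p = 0.0190). Oas1a lost its call without mgR613 (adjusted p = 0.0572), WT676 (0.0543) or WT744 (0.0612), and Oas2 lost its call without mgR613 (0.0594), WT676 (0.0574) or WT742 (0.0517).

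Other genes of the same group did not pass. Eif2ak2, which encodes the double-stranded RNA kinase PKR that halts translation, was at 6.85, 7.32, 7.31 and 7.34 in mutants and 6.85, 6.66, 6.54 and 6.42 in wild-type arrays. The groups met at a single value, since mgR611 equalled WT675 while the other mutants lay above all wild-type arrays. The difference was 0.59 (SE 0.155, adjusted p = 0.103), and without mgR611 it passed (adjusted p = 0.0461). Oasl2, an OAS-like protein with a ubiquitin-like tail, was at 8.08, 8.70, 8.08 and 7.80 in mutants and 8.57, 8.25, 7.57 and 8.20 in wild-type arrays. The arrays of both genotypes were interleaved, with a difference of 0.02 (SE 0.249, 95% interval -0.54 to 0.58, adjusted p = 0.989). Oasl1 differed by 0.26 (adjusted p = 0.279), and Oas3 read 3.60 to 3.84 over all arrays, under the filter. The group's mean per array was 6.13 to 6.58 in mutants and 5.68 to 5.92 in wild-type arrays, without overlap, and 2 of its 5 tested members were called, with a median difference of 0.59.

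Within the Oas locus on chromosome 5, chosen after the values were seen, 5 of 10 genes were above the filter. Oas2, Oas1g and Oas1a were called higher, by 1.05, 0.91 and 1.29, with adjusted p of 0.0190, 0.0235 and 0.0180. Oas1c differed by 0.08 (adjusted p = 0.803) and Oas1b, annotated as a transcribed pseudogene in this strain's genome, by -0.04 (adjusted p = 0.960), and Oas3, Oas1d, Oas1e, Oas1f and Oas1h were below the filter. Oas1a and Oas1g are close copies, so probes may share their signal and the split between them is uncertain.

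Among the cytosolic sensors of foreign nucleic acid, the gene of the Z-form nucleic acid sensor rose, and 0 of the 3 RIG-I-like receptor genes passed. Zbp1, which binds left-handed double helices and can trigger necroptosis, was at 5.96, 6.29, 6.23 and 5.96 in mutants and 5.51, 5.44, 5.63 and 5.48 in wild-type arrays. The genotypes did not overlap. The rise was 0.59 (SE 0.118, 95% interval 0.331 to 0.859, adjusted p = 0.0355). The call rested on all but 1 of the arrays. Its adjusted p was 0.0736 without mgR612, 0.0978 without mgR613 and 0.0543 without mgR614. It was 0.0964 without WT675, 0.0958 without WT676, 0.0615 without WT742 and 0.112 without WT744. With all arrays kept, Zbp1 was also not called without a filter or with median centring.

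Dhx58, which encodes LGP2, the regulatory RIG-I-like receptor, was at 5.39, 5.66, 5.61 and 5.40 in mutants and 4.97, 5.03, 5.17 and 4.84 in wild-type arrays. Here too every mutant array was above every wild-type array, but the difference of 0.51 (SE 0.114, 95% interval 0.257 to 0.768) missed the threshold at an adjusted p of 0.0559. It passed with array weights and with a variance prior that ignores intensity, where the lowest adjusted p was 0.0359. Overlap was seen for the receptors that start the signal. Ddx58, which encodes RIG-I, was at 7.79, 8.43, 8.15 and 7.66 in mutants and 7.99, 7.91, 7.57 and 7.52 in wild-type arrays, a difference of 0.26 (adjusted p = 0.639) with overlapping groups. Ifih1, which encodes MDA5, the receptor for long double-stranded RNA, differed by 0.02 (95% interval -0.59 to 0.63, adjusted p = 0.990).

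**Figure D2:**
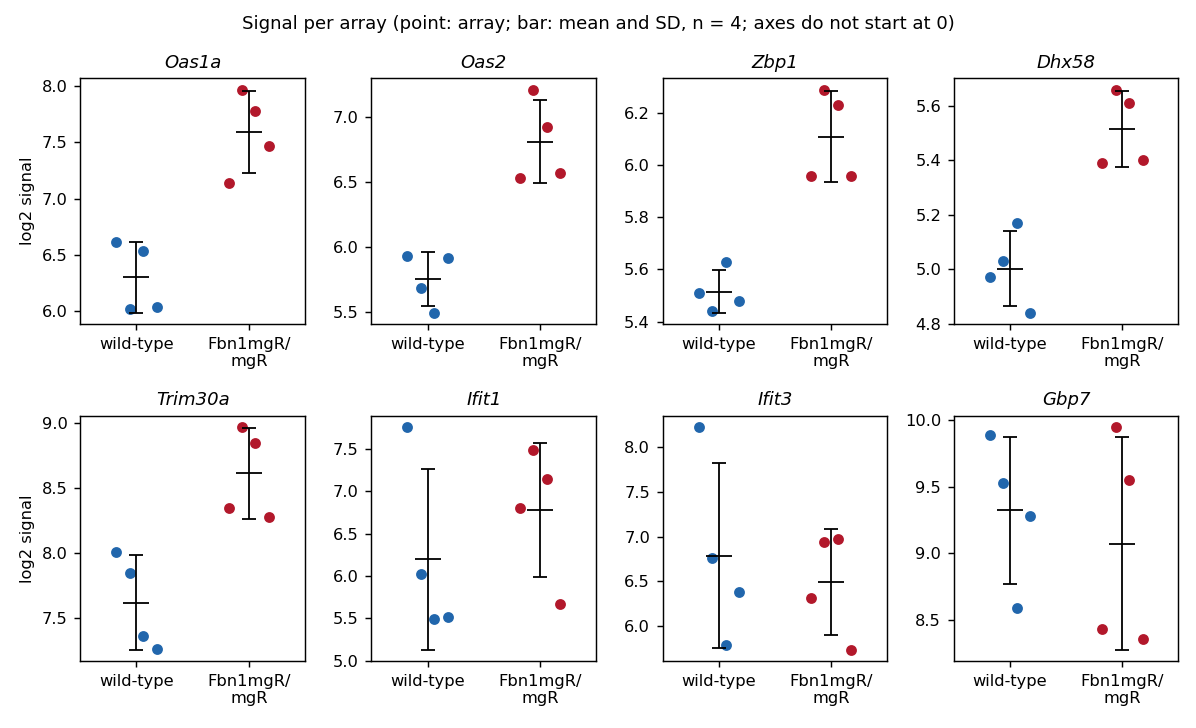
Log2 signal (y axis) on each of the 4 Fbn1mgR/mgR and 4 wild-type arrays (points) with the group mean (line) and SD (bar, n = 4), for 8 members, on axes that do not start at 0. Oas1a, Oas2, Zbp1, Dhx58 and Trim30a have all mutant points above all wild-type points, whereas Ifit1, Ifit3 and Gbp7 overlap, with WT675 the highest wild-type point in those 3 panels.

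The transcription factors that carry the signal gave no call, and 3 of the 4 had higher mutant means. Irf7, the factor that amplifies alpha interferon production, was at 5.61, 5.95, 5.63 and 5.24 in mutants and 5.50, 5.12, 5.10 and 4.99 in wild-type arrays. The overlap came from mgR614 and WT675, and the difference was 0.43 (SE 0.168, 95% interval 0.052 to 0.808, adjusted p = 0.280). Stat2 was at 6.97, 7.40, 7.32 and 7.17 in mutants and 7.31, 6.95, 6.32 and 6.78 in wild-type arrays, and differed by 0.38 (adjusted p = 0.472). WT675 again stood among the mutants. Irf9, the DNA-binding partner of STAT2, differed by 0.20 (adjusted p = 0.549). Irf1, the gamma-induced factor of the group, differed by -0.01 (95% interval -0.26 to 0.24, adjusted p = 0.986).

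The IFIT genes overlapped between the genotypes, with 0 of 3 called and a median difference of -0.28. Of their products, IFIT1 binds viral RNA that lacks host cap methylation. Ifit1 was at 6.80, 7.49, 7.15 and 5.67 in mutants and 7.76, 6.02, 5.49 and 5.51 in wild-type arrays. WT675 was above every mutant and mgR614 was within the range of the remaining wild-type arrays. The difference was 0.58 with an interval of -0.63 to 1.79 (SE 0.539, adjusted p = 0.717), and 1.10 without WT675 (adjusted p = 0.291).

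Ifit2 was at 7.51, 7.72, 7.57 and 6.77 in mutants and 8.54, 7.49, 7.30 and 7.36 in wild-type arrays, a difference of -0.28 (SE 0.306, adjusted p = 0.772). Ifit3 was at 6.32, 6.94, 6.98 and 5.73 in mutants and 8.23, 6.76, 5.79 and 6.38 in wild-type arrays, a difference of -0.30 (SE 0.487, adjusted p = 0.864). In both genes WT675 was the highest and mgR614 the lowest of all 8 arrays. Without WT675 the differences were 0.01 for Ifit2 and 0.18 for Ifit3. In the Ifit cluster on chromosome 19, chosen after the values were seen, 0 of 4 tested genes were called, and Ifit3b, a close copy of Ifit3 whose probes may share its signal, differed by 0.15 (adjusted p = 0.897).

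ISG15 is a ubiquitin-like protein that is conjugated to other proteins, and USP18 removes it and also damps IFNAR signalling. Usp18 was at 6.50, 6.66, 6.77 and 6.02 in mutants and 6.25, 5.78, 5.45 and 5.36 in wild-type arrays. Only WT675 lay within the mutant range, and the difference of 0.78 (SE 0.227, 95% interval 0.267 to 1.29) had an adjusted p of 0.143. Isg15 itself was at 6.20, 6.28, 6.08 and 5.81 in mutants and 6.32, 5.66, 5.98 and 5.81 in wild-type arrays. Its groups overlapped throughout, with a difference of 0.15 (95% interval -0.22 to 0.52, adjusted p = 0.778).

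Among the genes that block viral replication, 0 of 5 were called, and the median difference was 0.19. Mx1, a dynamin-like GTPase that traps viral nucleocapsids, was at 4.22, 4.26, 4.15 and 4.20 in mutants and 3.99, 3.96, 3.98 and 3.87 in wild-type arrays. The groups did not overlap, but the signal was near that of the olfactory receptors, and the difference of 0.26 (SE 0.073) had an adjusted p of 0.129. Many laboratory strains, C57BL/6 among them, carry a defective Mx1 gene. Samd9l, an inhibitor of translation, was at 9.28, 9.82, 9.93 and 9.19 in mutants and 9.61, 9.65, 9.28 and 9.50 in wild-type arrays, a difference of 0.05 (adjusted p = 0.958) with full overlap. Rsad2, which encodes viperin, differed by 0.49 (adjusted p = 0.425). Its neighbour Cmpk2, a mitochondrial nucleotide kinase, differed by -0.13 (adjusted p = 0.904), and Mx2 by 0.19 (adjusted p = 0.630).

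The factors that act at membranes had higher mutant means without a call. Ifitm3, which blocks fusion of viruses with endosomes, was at 12.54, 13.12, 13.27 and 12.52 in mutants and 12.41, 12.49, 12.23 and 11.97 in wild-type arrays. Every mutant array was above every wild-type array, and the difference of 0.59 (SE 0.204, 95% interval 0.130 to 1.05) had an adjusted p of 0.218. Bst2, which encodes tetherin, was at 11.70, 12.62, 12.91 and 10.63 in mutants and 12.09, 10.87, 10.93 and 10.18 in wild-type arrays. Its difference of 0.95 came with an SE of 0.527 and an adjusted p of 0.478, and mgR611 and mgR614 lay within the wild-type range. Ifitm1 differed by 0.17 (adjusted p = 0.642).

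Of the other type I effectors, all 6 tested members had positive differences, with a median of 0.37, and 0 were called. Trim30a, a tripartite-motif protein that restrains Toll-like receptor signalling, was at 8.35, 8.97, 8.85 and 8.28 in mutants and 8.01, 7.85, 7.36 and 7.26 in wild-type arrays. The groups did not overlap, and the difference was 0.99 (SE 0.228, 95% interval 0.481 to 1.50, adjusted p = 0.0632). It passed with array weights, with quantile normalization and among clusters above the upper quartile of signal, where the lowest adjusted p was 0.0446. Trim30d and Trim30c, close relatives in the same chromosome 7 cluster whose probes may share signal, rose by 1.36 (adjusted p = 0.0216) and 0.70 (adjusted p = 0.0383), and Trim30b differed by 0.37 (adjusted p = 0.169). Trim30c kept its call only without WT744, with adjusted p of 0.0811, 0.0793, 0.0595 and 0.106 without mgR611, mgR612, mgR613 and mgR614 and 0.0648, 0.0951 and 0.0944 without WT675, WT676 and WT742. This cluster was chosen after its values were seen. Rtp4, a chaperone of G protein-coupled receptors, was at 6.50, 7.57, 7.97 and 7.22 in mutants and 6.83, 6.53, 5.83 and 6.12 in wild-type arrays, and differed by 0.99 (SE 0.320, adjusted p = 0.186), with mgR611 inside the wild-type range. Lgals3bp differed by 0.53 (adjusted p = 0.415), Ifi35 by 0.22 (adjusted p = 0.620), Parp14 by 0.15 (adjusted p = 0.806) and Xaf1 by 0.10 (adjusted p = 0.921).

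The gamma-induced members gave 0 calls among 7 tested, and 0 passed an unadjusted p under 0.05 by limma. Their median difference was 0.17, with 5 positive and 2 negative, beside 0.26 with 28 positive and 3 negative for the 31 type I members tested, of which 12 passed an unadjusted p under 0.05. The difference between these medians was not tested, and 7 genes give little precision. Gbp7, a guanylate-binding protein of the family that attacks vacuoles of intracellular pathogens, was at 8.43, 9.95, 9.55 and 8.36 in mutants and 9.89, 9.53, 8.59 and 9.28 in wild-type arrays. The mutants split into a high and a low pair on either side of the wild-type mean, and the difference was -0.25 (SE 0.402, 95% interval -1.15 to 0.65, adjusted p = 0.861). Gbp3 was at 6.50, 7.27, 7.27 and 6.51 in mutants and 6.96, 6.97, 6.26 and 6.70 in wild-type arrays, with the same split of the mutants and a difference of 0.17 (adjusted p = 0.844). Gbp2 differed by 0.07 (adjusted p = 0.958).

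The 4 further Gbp genes with a value, all on chromosome 5 and chosen after the values were seen, had lower mutant means, and 0 were called. Gbp8, Gbp9, Gbp4 and Gbp11 differed by -0.46, -0.67, -0.74 and -0.47, with adjusted p of 0.467, 0.377, 0.443 and 0.403. Each of these differences lay below those of Gbp2, Gbp3 and Gbp7, which was not tested. Members of this family are close in sequence, so probes may share signal between them.

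The immunity-related GTPases, which also act on pathogen vacuoles, all had positive differences within the spread. Igtp, which encodes Irgm3, was at 8.38, 8.99, 9.53 and 8.42 in mutants and 8.61, 8.57, 7.82 and 8.45 in wild-type arrays, a difference of 0.47 (SE 0.283, adjusted p = 0.526). Irgm1, a regulator of the other GTPases and of autophagy, was at 5.94, 6.44, 6.73 and 6.34 in mutants and 6.34, 6.14, 5.76 and 5.83 in wild-type arrays, a difference of 0.35 (SE 0.193, adjusted p = 0.480). In both genes mgR613 was the highest array and the lower mutants overlapped the wild-type arrays. Iigp1 differed by 0.32 (adjusted p = 0.760).

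**Figure D3:**
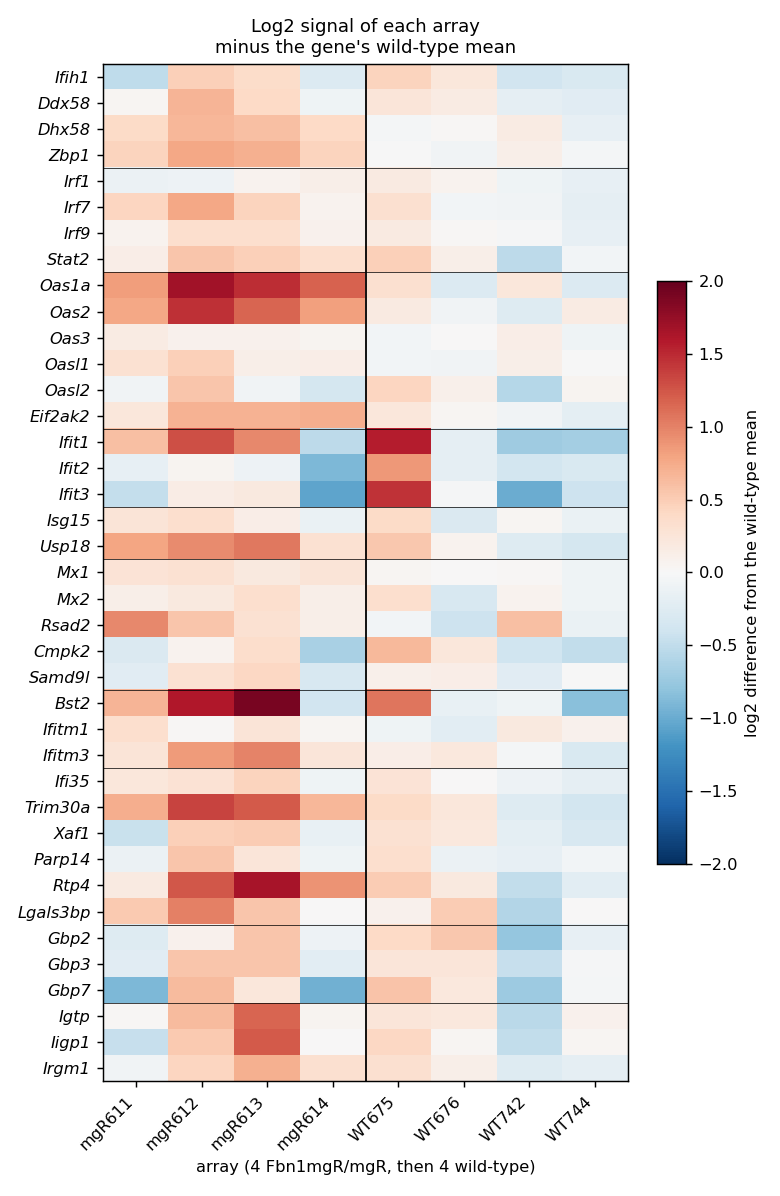
Signal of the 39 members with a cluster (rows, grouped by role) on each of the 8 arrays (columns), shown as the log2 signal minus that gene's wild-type mean. The mgR612 column is above the wild-type mean in 38 rows, mgR613 in 37, mgR611 in 25 and mgR614 in 22. Among wild-type columns, WT675 is above that mean in 33 rows, WT676 in 24, WT742 in 10 and WT744 in 5. WT675 is the highest wild-type array in 28 of the 39 rows.

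Single arrays stood high or low across many members. WT675 was the highest wild-type array in 28 of 39 members (23 of 32 type I and 5 of 7 gamma) and the lowest in 0. Among mutants, mgR612 was highest in 20 and mgR613 in 16, whereas mgR614 was lowest in 20 and mgR611 in 17. The mean over the type I members was 6.95, 7.36, 7.29 and 6.77 in the mutant arrays and 7.07, 6.72, 6.55 and 6.51 in the wild-type arrays, so WT675 lay within the mutant range. The mean over the gamma members was 6.82, 7.50, 7.75 and 6.99 in mutants and 7.44, 7.31, 6.63 and 7.04 in wild-type arrays, with wide overlap. Without WT675, 37 of 38 members had positive differences, with a median of 0.34 for type I members and 0.24 for gamma members. The gamma median was 0.02 without mgR613 and 0.01 without WT742.

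Cell type markers were read on the same arrays, and in bulk tissue fewer cells of a type and less RNA per cell cannot be told apart. Macrophage markers were higher in mutants: 18 of 21 were called (15 to 18 with each array left out in turn), with a median difference of 1.80, and the mean over the 21 genes was 9.56 to 10.11 in mutants and 7.85 to 8.15 in wild-type arrays. Cd68 rose by 2.40 (adjusted p = 0.00117). Of the classical dendritic cell markers 4 of 6 tested were higher, and of the monocyte markers 2 of 5, with Ccr2 up by 3.50 (adjusted p = 0.00135). The macrophage mean of WT675 (7.97) lay among the other wild-type arrays. No cause of the high type I mean of WT675 was tested. Endothelial markers had 2 positive and 6 negative differences, with a median of -0.64. The 1 of 8 called lower was Erg, an endothelial transcription factor. Erg differed by -1.21 (adjusted p = 0.0447) and kept its call only without mgR612, with adjusted p of 0.0934, 0.0969 and 0.0546 without mgR611, mgR613 and mgR614 and 0.122, 0.104, 0.0992 and 0.0986 without WT675, WT676, WT742 and WT744. Their mean over 8 genes was highest in WT675 (10.25) of all arrays, with 9.11 to 9.77 in mutants and 9.63 to 10.13 in the other wild-type arrays.

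Markers of plasmacytoid dendritic cells, the main source of alpha interferon in blood, had 0 of 8 called. Their differences were 4 positive and 4 negative, with a median of -0.03. Siglech read 5.40 to 5.56 in mutants and 5.30 to 5.82 in wild-type arrays. Every mutant array was above every wild-type array for Tlr9, which differed by 0.88 (limma adjusted p = 0.0537). The reverse held for Klk1 and Tcf4, which differed by -1.18 and -0.33 (limma adjusted p of 0.294 and 0.331). Klk1 read 3.57 to 3.91 in mutants, below the olfactory receptor reference of 4.11, and 3.99 to 6.46 in wild-type arrays. Markers of T and NK cells, the makers of gamma interferon, also had 0 of 8 tested called, with a mean over 12 genes of 4.92 to 6.50 in mutants and 5.42 to 6.61 in wild-type arrays. Smooth muscle markers had 0 of 8 called, with 2 positive and 6 negative differences and a median of -0.44. The lowest was that of Myh11, at -1.01 (limma adjusted p = 0.226). Neutrophil markers had 0 of 7 called (median 0.41), adipocyte markers 0 of 6 (median -0.32) and brown fat markers 0 of 6 (median -0.004).

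B cell markers had positive differences in 6 of 6 genes and 1 call, with a mean over 6 genes of 4.38 to 5.28 in mutants and 4.08 to 4.27 in wild-type arrays, without overlap. The call was Fcrla, a B cell Fc receptor-like protein, which rose by 1.08 (adjusted p = 0.0209), but not without mgR614 (0.0548), WT675 (0.0654), WT676 (0.0567), WT742 (0.0556) or WT744 (0.0603). Of the fibroblast markers 1 of 7 was called, and the list had 3 positive and 4 negative differences, with a median of -0.05. The call was Col1a1, a chain of type I collagen, which rose by 0.98 (adjusted p = 0.00837) and kept its call without any single array. Of the skeletal muscle markers 1 of 5 was called, Actn3, which differed by -0.71 (adjusted p = 0.0227), but was not called without mgR611 (0.0535), mgR614 (0.0565), WT675 (0.0591), WT676 (0.0649), WT742 (0.0543) or WT744 (0.0641). The means over the monocyte markers (9.17 to 10.23 in mutants, 8.46 to 8.75 in wild-type arrays) and the classical dendritic cell markers (5.62 to 6.01 and 4.74 to 4.88) also did not overlap. The part of any of these cell types in the members' differences was not tested.

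**Figure D4:**
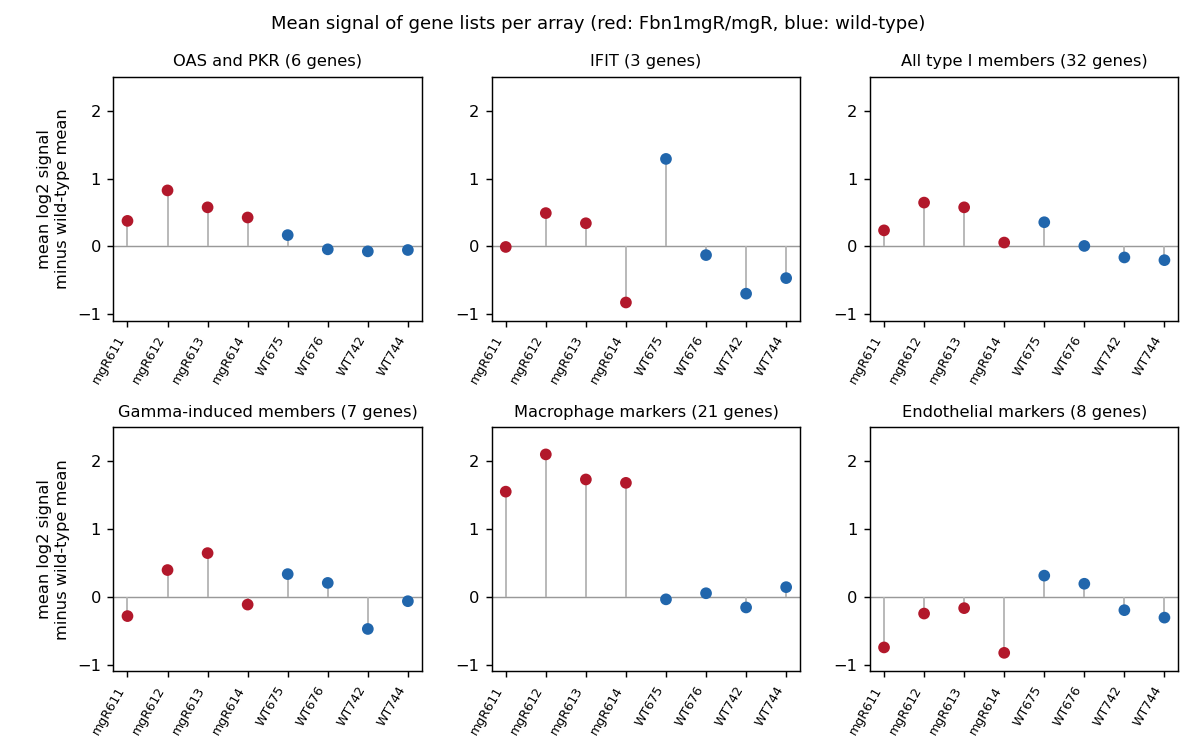
Mean log2 signal over the genes of 6 lists (panels) on each of the 4 Fbn1mgR/mgR and 4 wild-type arrays (points), less the mean of the wild-type arrays (y axis). The OAS and PKR means and the macrophage means do not overlap between genotypes, whereas the IFIT, type I and gamma means do, with WT675 as the highest wild-type point in these 3.

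The genes that make and receive interferon gave 0 calls among those tested. Of 21 interferon genes, 18 had a cluster and 14 of these were below the filter, Ifnb1 (3.73 to 4.23 in mutants, 3.91 to 4.11 in wild-type arrays) and Ifng (2.99 to 3.26 and 3.03 to 3.33) among them. The other 4, Ifna4, Ifna5, Ifnl2 and Ifnl3, differed by -0.04 to 0.04, and 0 were called. Of the receptors and Janus kinases 0 of 8 tested were called. Ifngr2 differed by 0.38 (adjusted p = 0.221), Jak1 by 0.39 (adjusted p = 0.271), Il10rb by 0.45 (adjusted p = 0.337) and Jak2 by -0.32 (adjusted p = 0.298).

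Downstream of the receptors, 1 of 5 tested STAT and IRF genes outside the members was called. Irf8, a factor of the myeloid lineage that also answers to gamma interferon, was at 5.77, 5.95, 6.08 and 6.22 in mutants and 5.07, 4.95, 4.90 and 4.99 in wild-type arrays. It rose by 1.03 (SE 0.118, adjusted p = 0.00329), without overlap, and kept its call without any single array. Irf5 differed by 0.46 (adjusted p = 0.141) and Stat3 by 0.34 (adjusted p = 0.328).

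Of 10 tested genes that couple sensing to interferon production, 2 were higher. Tlr7, the endosomal receptor for single-stranded RNA, was at 10.52, 10.68, 10.67 and 10.17 in mutants and 9.09, 9.31, 8.93 and 9.39 in wild-type arrays, and rose by 1.33 (SE 0.166, adjusted p = 0.00469). Myd88, the adaptor of that receptor, rose by 0.90 (adjusted p = 0.0375), but the adjusted p was 0.0779 without mgR611, 0.0625 without mgR613, 0.0928 without WT675, 0.0865 without WT676, 0.0873 without WT742 and 0.115 without WT744. Tlr9, the receptor for DNA, differed by 0.88 (adjusted p = 0.0537) and passed without mgR611 (0.0451) or mgR612 (0.0406). These receptors and Irf8 are abundant in macrophages and dendritic cells. On the same arrays, 18 of 21 macrophage markers and 4 of 6 classical dendritic cell markers were called higher. Of the plasmacytoid dendritic cell markers, Tlr9 among them, 0 of 8 were called. The part of any of those cells was not tested.

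Of 9 tested negative regulators 2 were higher. Ptpn6, which encodes the phosphatase SHP-1 of blood cells, rose by 1.04 (SE 0.131, adjusted p = 0.00492). Samhd1, which depletes nucleotides and limits sensing of self DNA, rose by 0.88 (adjusted p = 0.0216), but not without mgR612 (0.0513), mgR613 (0.0644), WT675 (0.0602), WT676 (0.0602), WT742 (0.0611) or WT744 (0.0658). Pias1 differed by -0.46 (adjusted p = 0.260).

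**Figure D5:**
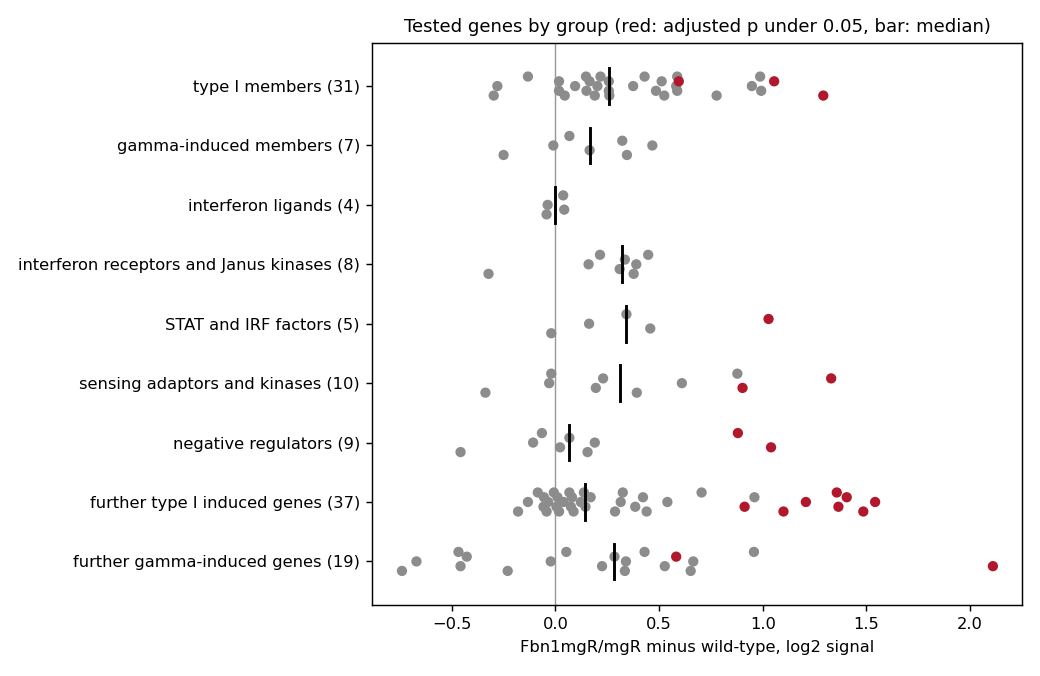
Difference in log2 signal between Fbn1mgR/mgR and wild-type aorta (x axis) for each tested gene (points) of the members and of 7 further lists of interferon pathway genes, with the number tested in brackets, red points for an adjusted p under 0.05 and a bar at each median. Red points lie to the right in each list that has any, from 0.58 (Ciita) to 2.11 (Fcgr1), and the ligands lie between -0.04 and 0.04.

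Further induced genes outside the member list gave 8 calls of 37 tested for type I interferon and 2 of 19 for gamma interferon, all higher, with medians of 0.15 and 0.29. The largest type I differences were in the Ifi200 family of DNA-binding proteins, whose genes are close copies. Ifi204 was at 10.58, 11.27, 10.85 and 10.59 in mutants and 9.55, 8.89, 9.09 and 9.59 in wild-type arrays, and rose by 1.54 (SE 0.217, adjusted p = 0.00762). Ifi211 was at 10.51, 10.94, 10.69 and 10.64 in mutants and 9.39, 8.69, 9.18 and 9.58 in wild-type arrays, and rose by 1.49 (SE 0.200, adjusted p = 0.00630). Both were without overlap and kept the call without any single array.

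The other calls depended on single arrays. Ifi207 rose by 1.36 (adjusted p = 0.0216), but not without mgR611 (0.0511), mgR613 (0.0539) or WT675 (0.0639). Trim30d, given above, lost its call without mgR612 (0.0521), mgR613 (0.0655), WT676 (0.0645), WT742 (0.0606) or WT744 (0.0746). Phf11a rose by 1.21 (adjusted p = 0.0227), but not without mgR612 (0.0545), mgR613 (0.0591), WT676 (0.0512), WT742 (0.0624) or WT744 (0.0772). Oas1g lost its call without mgR613 (0.0611), mgR614 (0.0644), WT675 (0.0535), WT676 (0.0674), WT742 (0.0543) or WT744 (0.0821).

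Ifi209 rose by 1.10 (adjusted p = 0.0366) and kept its call only without mgR611, with adjusted p of 0.0793, 0.0885 and 0.0988 without mgR612, mgR613 and mgR614 and 0.101, 0.0767, 0.0919 and 0.0902 without WT675, WT676, WT742 and WT744. Phf11b rose by 1.41 (adjusted p = 0.0404) and kept its call only without WT675, with 0.0512, 0.0790, 0.112 and 0.0617 without mgR611, mgR612, mgR613 and mgR614 and 0.0951, 0.0984 and 0.123 without WT676, WT742 and WT744.

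Among further gamma-induced genes, Fcgr1, the high-affinity IgG receptor of monocytes and macrophages, was at 6.60, 7.34, 7.38 and 7.84 in mutants and 5.54, 5.02, 5.39 and 4.77 in wild-type arrays. It rose by 2.11 (SE 0.264, adjusted p = 0.00471), without overlap, and kept its call without any single array. Ciita, the master regulator of MHC class II genes, rose by 0.58 (adjusted p = 0.0288), but not without mgR612 (0.0650), mgR614 (0.0826), WT675 (0.0745), WT676 (0.0584), WT742 (0.0740) or WT744 (0.0820). The wild-type mean of Ciita was 4.01, below the olfactory receptor reference of 4.11. B2m, the light chain of MHC class I, differed by 0.65 (adjusted p = 0.0658) and passed without mgR611 (0.0131), and Icam1, an adhesion molecule for leukocytes, differed by 0.67 (adjusted p = 0.103). Fcgr1 and Ciita are also expressed by macrophages and dendritic cells without interferon, and the part of those cells in their rise was not tested.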

How the data were processed

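Gene expression was measured on 8 Affymetrix Clariom D mouse arrays, 4 for each genotype. The log2 signals were deposited by the authors as 1 table of 65956 transcript clusters with 2 decimals. Per the submitters' processing notes it was made with Transcriptome Analysis Console, with a normalization not given in the sources used here. Platform annotation gave 1 symbol to 30604 clusters, several to 2146 and none to 33206. A gene was read from its brightest cluster of 1 symbol.

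Genotypes were compared with limma 3.58.1 in R 4.3.3 (lmFit, eBayes with an intensity trend). Clusters whose mean signal exceeded the median of 4.01 were kept, and p-values were adjusted by the Benjamini-Hochberg method over the 32957 tested. The procedure was tested on simulated data. Replicate numbers are not shared between the genotypes, and no batch is given. Tables and figures were made with Python 3.11.15, pandas 2.3.3 and matplotlib 3.10.9.

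The members and lists were chosen with earlier results of these data known, so lists are described by counts and medians without a test. Values on every array are given for members past the threshold and, in each role group, for the member with the smallest p and the brightest member; a few more were added for contrast. From the other pathway lists, genes past the threshold and up to 4 with the smallest p could be named. Alternatives changed the variance prior, filter, array weights, normalization, brown fat covariate, cluster choice and threshold, and left out each array. For families named on a chromosome, gene order and promoter sequences came from RefSeq tables on GRCm38.p6.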

Additional observations from a re-analysis of the deposited data

Results flagged for a closer look

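Among 78 groups of 4 arrays examined (39 members in each genotype), an array stood far from the remaining 3 in 2 groups (2.56%), by Dixon's criterion. Chance alone sets apart about 1 in 20 such groups. Eif2ak2 on mgR611 was 6.85, below 7.31 to 7.34 on the other mutant arrays. Ifit2 on WT675 was 8.54, above 7.30 to 7.49 on the other wild-type arrays.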

How the results depend on the processing

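No paired analysis was possible because the genotypes share 0 replicate numbers. With each array left out in turn, 272 to 521 clusters were higher and 67 to 146 lower, 0 to 4 members were higher and 0 lower, and the medians ranged from 0.24 to 0.376 for type I members and from 0.0108 to 0.294 for gamma members. Without a filter 339 clusters were higher and 99 lower, and at an adjusted p under 0.1 the counts were 816 and 393. Array weights gave 5 members higher, the threshold of 0.1 also 5, and the remaining fits of all arrays 2 to 4, with Oas1a and Oas2 in each. Filtering before the variance prior was estimated, an alternative chosen after seeing the data, gave 3. Upper-quartile filtering gave a type I median of 0.375 over fewer genes. The differences of some genes changed sign when 1 array was left out. They ran from -0.138 to 0.193 for Ifih1, -0.0642 to 0.0492 for Irf1 (0.00469 with quantile normalization) and -0.175 to 0.158 for Oasl2. For Ifit2 and Ifit3, whose differences over all arrays were -0.28 and -0.30, they ran from -0.404 to 0.00917 and -0.631 to 0.182. The ranges were -0.294 to 0.0858 for Cmpk2, -0.08 to 0.167 for Samd9l, -0.0425 to 0.277 for Xaf1 and -0.191 to 0.249 for Gbp2. Ligand ranges were -0.12 to 0.01 for Ifnl2, -0.0258 to 0.0975 for Ifnl3, -0.133 to 0.0233 for Ifna5 and -0.0733 to 0.13 for Ifna4. The cause of these changes of sign was not tested. Signals near 4.11, the level of olfactory receptor genes, limit what can be read for the members Oas3, Oasl1 and Mx1, and for Ciita and Klk1.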
